A study of Homo sapiens with 6 samples.

Results

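The TGF-beta ligands TGFB1, TGFB2 and TGFB3, the receptors TGFBR1, TGFBR2 and TGFBR3, and the signal mediators SMAD2, SMAD3, SMAD4 and SMAD7 were followed in MDA-MB-231 cells after knockdown of the cytoskeletal protein CRP2. These 10 genes were chosen by their symbols, with earlier results of these data known, from the 58395 genes of the count table, and all 10 were among the 23806 genes tested. After the CRP2-targeting siRNA, 5 of the 10 fell, where 11.5% of all genes tested fell. They were the ligands TGFB1 and TGFB2, the receptor TGFBR2, and SMAD3 and SMAD4. TGFB2 and TGFBR2 fell most, by 0.60 and 0.65 on the log2 scale. No difference was called for TGFB3, TGFBR1 and SMAD2. TGFBR3 and SMAD7 were called higher only in a fit that paired libraries by a code in their column names. Without both libraries of code 0611, SMAD3 was the only member called, and 2119 in place of 5722 genes were called in all.

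TGF-beta is secreted in a latent form, bound to its own propeptide and often to a latent TGF-beta binding protein of the matrix, and must be released before it can act. Free ligand brings the type II receptor TGFBR2 together with the type I kinase TGFBR1, which phosphorylates SMAD2 and SMAD3, and these enter the nucleus with SMAD4 to regulate target genes. TGFBR3, or betaglycan, is a coreceptor that presents ligand, while SMAD7 is an inhibitory SMAD whose gene the pathway itself induces. In breast cancer cells the pathway is known for growth arrest early in the disease and for invasion and metastasis later on.

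MDA-MB-231 is an invasive line from a breast adenocarcinoma. The cells were grown in complete DMEM and transfected either with a non-targeting siRNA (siCTR, 3 libraries) or with the single CRP2-targeting siRNA siCRP2#a (siCRP2, 3 libraries). The labels place the harvest 65 h after transfection, and the study's methods give a slightly later time. CRP2 is an actin-bundling LIM domain protein encoded by CSRP2, and the comparison asks how its depletion changes gene expression. With 1 siRNA sequence in the siCRP2 group, effects of CRP2 loss and effects of that sequence on other transcripts cannot be told apart. The labels call the libraries replicates without naming separate cultures, so a p-value measures the spread between these libraries. That spread is estimated partly from other genes.

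The libraries held 17336798 to 39115778 counts. A normalised count (CPM) is a count relative to the library total scaled by TMM, and 1 count was worth 0.0256 to 0.0582 CPM. Each column name carries 1 of 3 codes (0412, 0611 and 1311), each shared by 1 siCTR and 1 siCRP2 library, and libraries of the same code deviated together. CSRP2 itself (GRCh38, chromosome 12, 76858709 to 76879023, minus strand) stood at 13.7, 11.7 and 11.4 CPM in siCTR and at 2.17, 1.78 and 1.89 CPM in siCRP2 libraries, in the order of the codes 0412, 0611 and 1311. It fell by 2.66 on the log2 scale (SE 0.178, adjusted p = 2.4e-08). Of the markers of the labelled epithelial type, KRT8, KRT18, KRT19, KRT7, EPCAM and CDH1 were expressed in every library, whereas the basal keratins KRT5 and KRT14 stayed below 1 CPM in every library. Between the groups CDH1 rose by 0.94 on the log2 scale (adjusted p = 6.5e-04). Of the mesenchymal-state markers, VIM, CD44, AXL and ZEB1 were expressed in every library, and CDH2 stood at 0.641 to 2.54 CPM. AXL fell by 1.06 (adjusted p = 3.1e-06) and CDH2 rose by 1.31 (adjusted p = 0.0027) on the log2 scale. Of 8 markers of leukocytes, endothelium, fibroblasts and pericytes, 6 were under 1 CPM in every library, the exceptions being PECAM1 and PDGFRB. The summed level of these 8 ran from 30.6 to 41.8 CPM in siCTR and from 11.7 to 13.3 CPM in siCRP2 libraries. PECAM1 fell by 1.47 (SE 0.302, adjusted p = 0.0099) and PDGFRB by 1.73 (SE 0.142, adjusted p = 2.0e-07) on the log2 scale, so their direction, like that of AXL, was that of the members that fell. The part of these markers in the members' results was not tested. In bulk RNA, fewer cells of a kind and less RNA per cell cannot be told apart.

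A difference was called at an adjusted p under 0.05 (edgeR's quasi-likelihood test, Benjamini-Hochberg adjustment over all genes tested). In that test 5 of the 10 members were lower, where 11.5% of all genes tested were lower. None of the 10 was higher in this fit without pairing, where 12.5% of all genes were. At an unadjusted p under 0.05 the number of higher members was also 0, and it was 0 with edgeR's exactTest and with DESeq2. In either direction, 24.0% of all genes were called. With a fold change of at least 1.5 as well, 2 members were called (TGFB2 and TGFBR2), where 12.4% of all genes were. The 3 siCTR and 3 siCRP2 values did not overlap for the 5 members that fell, and for no other member, where 37.4% of all genes did not overlap. The median log2 fold change of the members was -0.20 and that of all genes -0.022.

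The codes changed what could be seen of the members. Within all 3 codes, 7 of the 10 members kept 1 direction, where 55.4% of all genes did. With the code as a block in the fit, the 5 members that were lower stayed lower, where 17.8% of all genes were lower, and TGFBR3 and SMAD7 were called higher, where 19.5% of all genes were. The blocked fit called 8873 genes in place of 5722. Without both libraries of code 0611, 2119 genes and 1 member, SMAD3, were called.

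**Figure D1:**
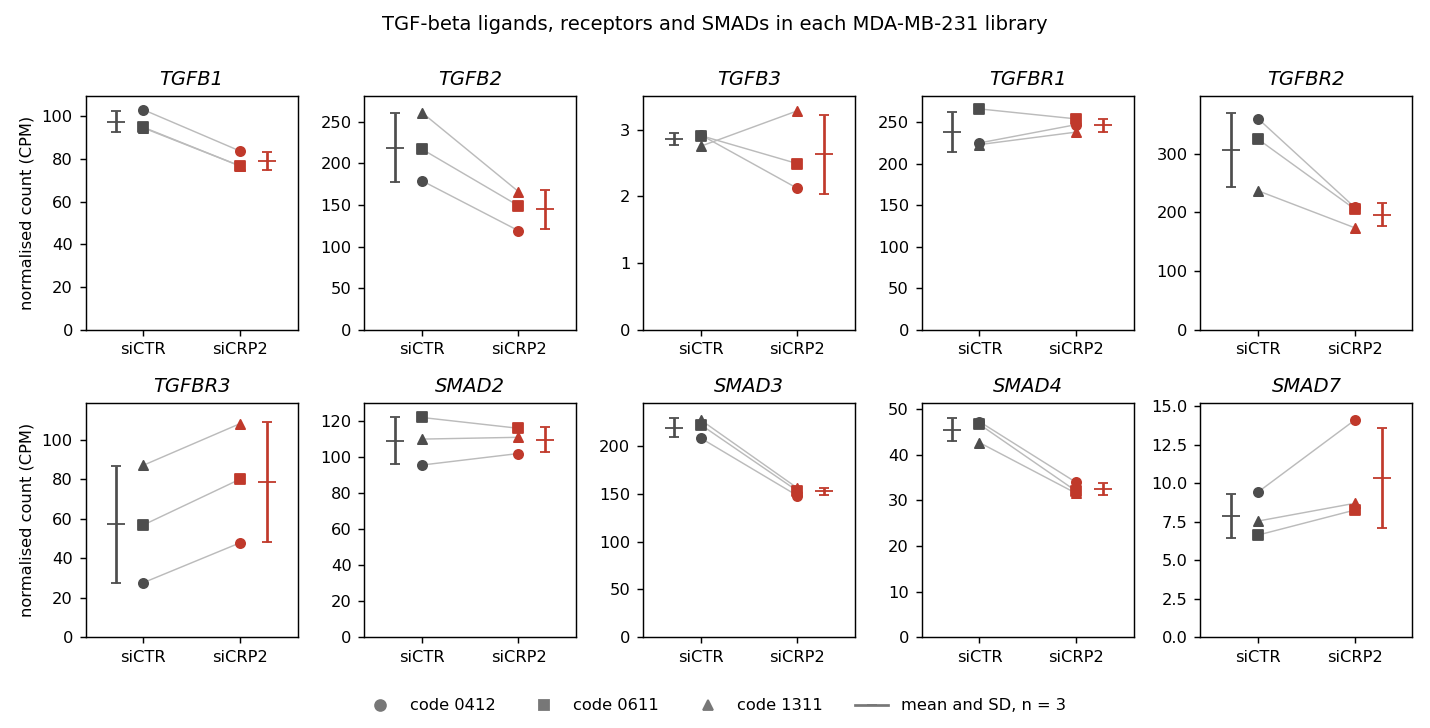
Normalised counts (CPM, linear axis from 0) of the 10 members in each library, 1 panel per gene, with siCTR in grey and siCRP2 in red, symbols and joining lines for libraries of the same code, and the mean and SD of 3 libraries beside the points. TGFB1, TGFB2, TGFBR2, SMAD3 and SMAD4 lie lower in every siCRP2 library than in every siCTR library, and TGFBR3 lies higher within each code although its groups overlap.

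The transcripts were searched for the letters GCCTCAC on the transcript strand. This heptamer was singled out in an earlier search of the fold changes of these same libraries, so its presence among genes that fell is not independent evidence, and it is shown because 3 of the 5 members that fell carry it. It occurred in the canonical GENCODE transcript of 4 of the 10 members and in 23.9% of the 14858 canonical protein-coding transcripts tested (10.8% in the 3′ UTR and 13.6% in the coding sequence). Each window below is 21 bases, 5′ to 3′ on the transcript strand, with the heptamer in capitals. The TGFB2 and TGFBR2 windows lie in the 3′ UTR at chr1:218441750-218441770 (plus strand) and chr3:30692918-30692938 (plus strand) of GRCh38. The SMAD2 windows lie in the 3′ UTR at chr18:47826564-47826584 and chr18:47812319-47812339 (minus strand). The SMAD4 window lies in the coding sequence at chr18:51058385-51058405 (plus strand), and the CSRP2 window lies in the coding sequence across an exon junction.
TGFB2: atcccgcGCCTCACttgattt
TGFBR2: caaagctGCCTCACttctcac
SMAD2, first: ggagttgGCCTCACctggaag
SMAD2, second: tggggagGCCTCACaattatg
SMAD4: ctaatttGCCTCACcaccaaa
CSRP2: gtgttcaGCCTCACaggccta
TGFB1 and SMAD3 fell and do not hold these letters, and SMAD2 holds them at 2 places in a canonical transcript of 34626 bases and was not called. The sequence of siCRP2#a was not analysed here, and the part of the heptamer in the changes was not tested.

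Among the ligands, TGFB2 was the most changed. TGFB2 (chromosome 1, 218345336 to 218444619, plus strand) encodes the isoform best known from development and from epithelial to mesenchymal transition. It was measured at 179, 217 and 261 CPM in siCTR and at 119, 149 and 166 CPM in siCRP2 libraries, in the order of the codes. Every siCRP2 library lay below every siCTR library, and within both groups code 0412 was lowest and code 1311 highest. TGFB2 fell by 0.60 on the log2 scale (SE 0.164, 95% interval -0.98 to -0.22, adjusted p = 0.032), which is 1.51-fold lower. The log2 ratios within the codes were -0.58, -0.54 and -0.66. The call was lost without the siCRP2 library of code 0611 (adjusted p = 0.089), without the siCTR library of that code (adjusted p = 0.085) and without both (adjusted p = 0.17). The antisense gene TGFB2-AS1 overlaps TGFB2 and held at most 22 counts in a library, where TGFB2 held at least 2251.

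TGFB1 (chromosome 19, 41301587 to 41353922, minus strand), the ligand most widely expressed across tissues, stood at 103, 94.8 and 94.5 CPM in siCTR and at 83.7, 76.7 and 76.7 CPM in siCRP2 libraries. The change was modest and even, with log2 ratios of -0.30, -0.31 and -0.30 within the codes, and the groups did not overlap. TGFB1 fell by 0.30 on the log2 scale (SE 0.0852, 95% interval -0.48 to -0.12, adjusted p = 0.015), or 18.9% on the linear scale. Without the siCRP2 library of code 1311 the adjusted p was 0.061, without both libraries of that code 0.074, and without both libraries of code 0611 0.11. The body of TGFB1 overlaps HNRNPUL1 and CCDC97 on the other strand, and whether the counts separate strands is not known. HNRNPUL1 held up to 507% and CCDC97 up to 24.1% of the TGFB1 count of a library, and their log2 fold changes were 0.19 (adjusted p = 0.16) and -0.33 (adjusted p = 0.056).

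TGFB3 (chromosome 14, 75958097 to 75983011, minus strand), the third isoform, was scarce. It held 74, 50 and 60 counts in the siCTR libraries and 40, 53 and 128 counts in the siCRP2 libraries, or 2.92, 2.91 and 2.75 CPM against 2.12, 2.49 and 3.28 CPM. The siCRP2 values lay on both sides of the siCTR values. The log2 fold change was -0.10 with a 95% interval of -0.58 to 0.38 (adjusted p = 0.81), so a change within that interval in either direction was not resolved. TGFB3 overlaps IFT43 on the other strand, which held 309 counts in a library where TGFB3 held 40 and rose by 0.43 on the log2 scale (adjusted p = 0.027).

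Of the receptors, TGFBR2 changed and TGFBR1 did not pass the test. TGFBR2 (chromosome 3, 30606601 to 30694142, plus strand), the receptor that binds the ligand first, stood at 360, 325 and 237 CPM in siCTR and at 209, 206 and 174 CPM in siCRP2 libraries. All siCRP2 values lay below all siCTR values, and the gap was widest in code 0412 and narrowest in code 1311, with log2 ratios of -0.79, -0.66 and -0.45. TGFBR2 fell by 0.65 on the log2 scale (SE 0.149, 95% interval -0.98 to -0.31, adjusted p = 0.012), or 1.57-fold. It remained called when any single library was left out, and had an adjusted p of 0.092 when both libraries of code 0611 were left out.

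TGFBR1 (chromosome 9, 99104038 to 99154192, plus strand), the type I kinase that TGFBR2 activates, stood at 225, 266 and 223 CPM in siCTR and at 247, 254 and 238 CPM in siCRP2 libraries. The groups overlapped. The log2 fold change was 0.05 (SE 0.0890), and the 95% interval of -0.14 to 0.24 did not reach the size of the fall of TGFBR2.

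The coreceptor TGFBR3 (chromosome 1, 91680343 to 91906335, minus strand) varied more between codes than between groups. It was measured at 27.6, 56.8 and 87.0 CPM in siCTR and at 47.7, 79.9 and 108 CPM in siCRP2 libraries. Within each code the siCRP2 library was the higher, by log2 ratios of 0.79, 0.49 and 0.31, while the groups as a whole overlapped. Without the block the log2 fold change was 0.46 with a 95% interval of -1.05 to 1.98 (adjusted p = 0.65). With the code as a block it was 0.51 (SE 0.070, 95% interval 0.38 to 0.65, adjusted p = 2.5e-12), so the call depends on whether the libraries of a code are taken as pairs. The blocked SE was 0.063 for both TGFBR2 and SMAD3, although the ratios within the codes varied more for TGFBR2. Such an SE rests largely on a spread pooled over genes, so this p-value does not measure how evenly TGFBR3 rose.

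Of the receptor-activated SMADs, SMAD3 was lower and SMAD2 was not called. SMAD3 (chromosome 15, 67063763 to 67195173, plus strand), which binds DNA directly, stood at 208, 222 and 227 CPM in siCTR and at 148, 153 and 156 CPM in siCRP2 libraries. The groups were far apart for the spread within them, and the log2 ratios within the codes were -0.49, -0.54 and -0.53. SMAD3 fell by 0.52 on the log2 scale (SE 0.0807, 95% interval -0.69 to -0.35, adjusted p = 0.00014), or 1.44-fold, and remained called when any single library or both libraries of any code were left out.

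SMAD2 (chromosome 18, 47808957 to 47931146, minus strand), whose main isoform does not bind DNA on its own, stood at 95.6, 122 and 110 CPM in siCTR and at 102, 116 and 111 CPM in siCRP2 libraries. The groups overlapped and the codes kept their order. The log2 fold change was 0.0027 (SE 0.0969, adjusted p = 0.99), with a 95% interval of -0.20 to 0.21 that leaves out the change of SMAD3.

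SMAD4 (chromosome 18, 51028528 to 51085045, plus strand), the partner that SMAD2 and SMAD3 share, stood at 47.3, 46.7 and 42.7 CPM in siCTR and at 34.0, 32.1 and 31.6 CPM in siCRP2 libraries. No siCRP2 library reached the lowest siCTR library. SMAD4 fell by 0.49 on the log2 scale (SE 0.0984, 95% interval -0.69 to -0.28, adjusted p = 0.0014), or 1.40-fold. It remained called when any single library was left out, and had an adjusted p of 0.055 without both libraries of code 0611. Another protein-coding gene overlaps SMAD4 on the same strand and held 0 counts in every library. The effect of that overlap on the SMAD4 counts was not tested.

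The inhibitor SMAD7 (chromosome 18, 48919853 to 48950965, minus strand) held 114 to 340 counts in a library and was called only with the block. It stood at 9.44, 6.64 and 7.55 CPM in siCTR and at 14.1, 8.26 and 8.70 CPM in siCRP2 libraries, and the siCTR library of code 0412 lay above the siCRP2 libraries of codes 0611 and 1311. Without the block the log2 fold change was 0.38 (SE 0.212, 95% interval -0.08 to 0.84, adjusted p = 0.23). With the block it was 0.38 (SE 0.120, adjusted p = 0.0058), and the siCRP2 library was higher in 3 of 3 codes. The blocked p-value rests partly on a spread pooled over genes, as for TGFBR3. In the unblocked fit without the siCRP2 library of code 0412, the log2 fold change was 0.0937 (adjusted p = 0.78).

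**Figure D2:**
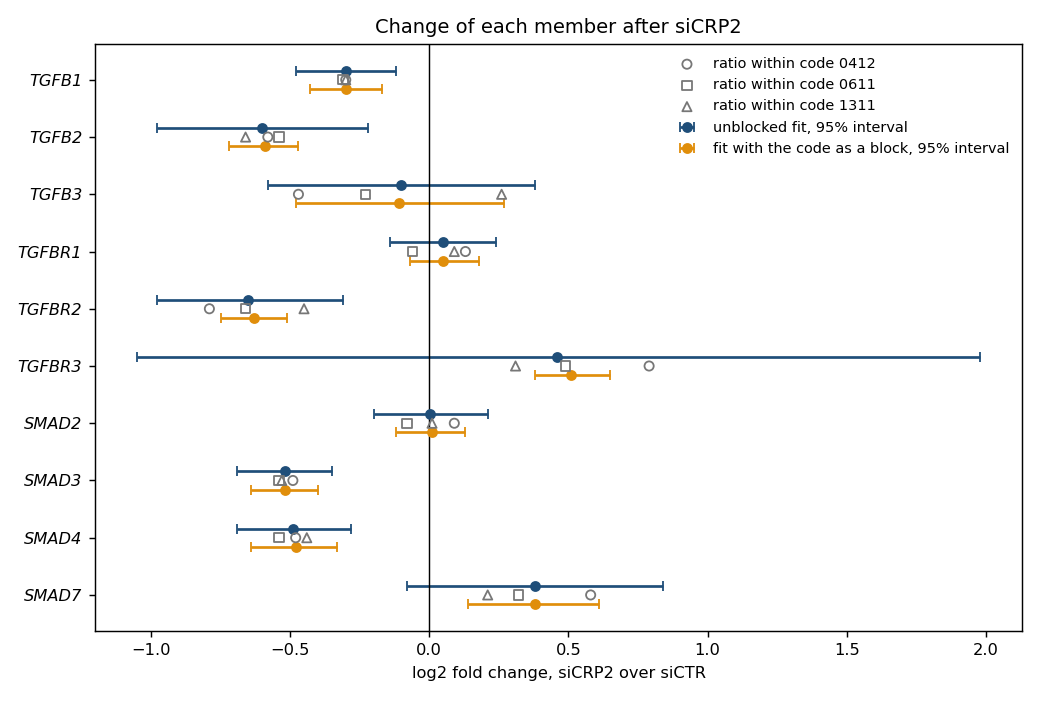
Log2 fold change of each member, siCRP2 over siCTR, with the 95% interval of the unblocked fit (blue) and of the fit with the code as a block (orange), and the log2 ratio within each code as open symbols. The interval of TGFBR3 spans -1.05 to 1.98 without the block and 0.38 to 0.65 with it, and those of TGFB3, TGFBR1 and SMAD2 include 0 in both fits.

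Because levels of different genes can be compared only per length, the CPM of each member was divided by the length of its annotated exons in kb. In siCTR cells TGFBR2 stood highest at 44.9 ± 9.28 CPM per kb (SD, n = 3), followed by TGFB2 at 36.2 ± 6.84 and by TGFB1 and TGFBR1 at 29.8 ± 1.43 and 29.8 ± 3.00. SMAD3 followed at 21.9 ± 0.947, TGFBR3 at 6.66 ± 3.46, SMAD2 at 3.00 ± 0.363, SMAD4 at 2.33 ± 0.127, SMAD7 at 2.00 ± 0.362 and TGFB3 at 0.548 ± 0.0190 CPM per kb. The ranges of TGFBR2 and TGFB2 overlapped, as did those of TGFB2, TGFB1 and TGFBR1, those of TGFBR3 and SMAD2, and those of SMAD4 and SMAD7. In siCRP2 cells the level per kb of TGFBR1 was 30.8 ± 1.04 and that of TGFBR2 28.7 ± 2.86, with overlapping ranges. The values depend on the length that is used. For SMAD2 both lengths were long, 36426 bases of exons and 34626 bases of the longest transcript, of which 32870 are 3′ UTR. Whether these cells use that 3′ UTR was not tested, so the place of SMAD2 below SMAD3 per kb may come from its annotated length. Not divided by length, SMAD2 averaged 109 and SMAD3 219 CPM in siCTR libraries. Per kb of the longest transcript, SMAD4 stood at 5.10 ± 0.278, above SMAD2 at 3.15 ± 0.382, and SMAD3 at 33.9 ± 1.47 in siCTR cells.

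The balance of partners was read as a ratio of counts within a library, which needs no scaling between libraries. Since the counts are not divided by length, only the change of a ratio between groups can be read, and 5 ratios were compared. The ratio of SMAD3 to SMAD2 was 2.18, 1.82 and 2.06 in siCTR and 1.46, 1.32 and 1.41 in siCRP2 libraries, a mean 30.8% lower, with no overlap. The ratio of TGFBR2 to TGFBR1 was 1.60, 1.22 and 1.06 in siCTR and 0.847, 0.811 and 0.731 in siCRP2 libraries, a mean 38.5% lower, with no overlap. Both partners of a ratio thus come from the same library, and the first named of each pair is the member that fell. The ratio of SMAD7 to SMAD3 was 0.0453, 0.0299 and 0.0333 in siCTR and 0.0954, 0.0539 and 0.0556 in siCRP2 libraries. Its mean was 0.0362 ± 0.00809 and 0.0683 ± 0.0235 (SD, n = 3), 1.89 times higher, with the highest value in code 0412. SMAD3 itself fell and SMAD7 was not called without the block. The ratios reuse the counts of the members, so they are not evidence separate from the members' own changes. For these 3 ratios the two-sided exact permutation test on the log2 ratios gave p = 0.10 (0.167 after Benjamini-Hochberg adjustment), the smallest value that 3 against 3 libraries can give. The ratio of TGFB2 to TGFB1 was 1.74, 2.29 and 2.76 in siCTR and 1.42, 1.95 and 2.16 in siCRP2 libraries (exact permutation p = 0.40, adjusted 0.40). That of TGFBR3 to TGFBR2 was 0.0767, 0.175 and 0.367 in siCTR and 0.228, 0.388 and 0.620 in siCRP2 libraries (exact permutation p = 0.20, adjusted 0.25). The groups overlapped for both, while within 3 of 3 codes the TGFB2 to TGFB1 ratio was lower and the TGFBR3 to TGFBR2 ratio higher in the siCRP2 library. The permutation tests did not use the codes.

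**Figure D3:**
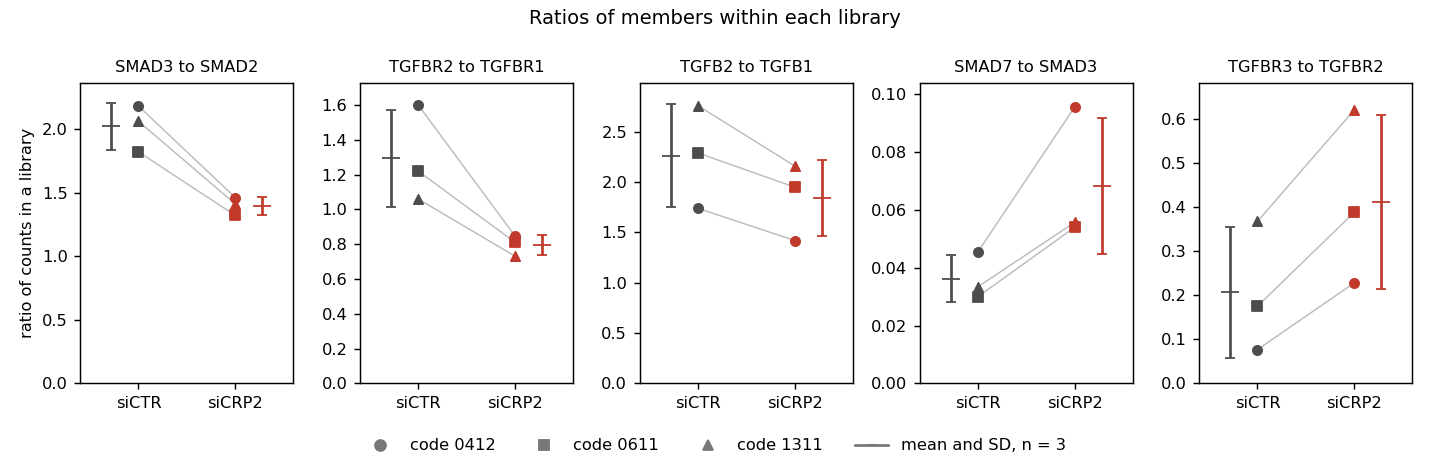
Ratios of the counts of a pair of members within each library (linear axes from 0), with siCTR in grey, siCRP2 in red, lines joining libraries of the same code, and the mean and SD of 3 libraries. The SMAD3 to SMAD2 and TGFBR2 to TGFBR1 ratios lie lower in every siCRP2 library, whereas the TGFB2 to TGFB1 and TGFBR3 to TGFBR2 ratios overlap.

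The genes around these members were read from 6 lists, 140 entries in all, written with earlier results of these data known. Of the 126 genes tested, each counted once, 19 were lower and 29 higher (median log2 fold change 0.09), where 11.5% of all genes were lower and 12.5% higher. The number higher was 19, 19 and 18 without the siCRP2 library of code 0412, 0611 and 1311, and 19 without the siCTR library of code 0611. Without both libraries of code 0611, 11 were lower and 7 higher.

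Of 13 genes tested that hold TGF-beta latent or release it, 6 fell and 1 rose (53.8% called, where 24.0% of all genes were). Their median log2 fold change was -0.84. FURIN, the protease that cleaves the TGF-beta propeptide from the ligand, stood at 110, 102 and 136 CPM in siCTR and at 29.8, 37.5 and 40.0 CPM in siCRP2 libraries. FURIN fell by 1.69 on the log2 scale (SE 0.130, adjusted p = 1.8e-06). Among the latent TGF-beta binding proteins, which tether the latent ligand to the matrix, LTBP1 stood at 74.5, 82.9 and 52.8 CPM in siCTR and at 34.1, 34.3 and 26.8 CPM in siCRP2 libraries. LTBP1 fell by 1.15 (SE 0.172, adjusted p = 0.0012), LTBP3 by 0.84 (SE 0.128, adjusted p = 0.00013) and LTBP4 by 0.54 (SE 0.116, adjusted p = 0.0027) on the log2 scale. NRROS, a membrane anchor for latent TGF-beta, was scarce at 6.26 ± 0.824 CPM in siCTR and 2.07 ± 0.109 CPM in siCRP2 cells (SD, n = 3) and fell by 1.59 (SE 0.201, adjusted p = 2.0e-05). The integrin subunit ITGAV, which takes part in release, also fell, and FBN1, the fibrillin of the microfibrils, rose. Leaving out single libraries gave 5 to 7 lower and 0 to 2 higher genes, with 0 higher in 4 of the 6 fits. With the block 9 of the 13 were lower and 2 higher, where 17.8% and 19.5% of all genes were.

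Of 19 regulators of the receptors tested, 10 rose and 0 fell (52.6% called, where 24.0% of all genes were). Their median log2 fold change was 0.30. The number lower was also 0 at an unadjusted p under 0.05, with exactTest and with DESeq2. ZFYVE9, or SARA, which presents SMAD2 and SMAD3 to the receptor, rose by 0.61 (SE 0.0841, adjusted p = 4.6e-05), from 57.7 ± 1.42 CPM in siCTR to 88.2 ± 3.29 CPM in siCRP2 cells (SD, n = 3). TGFBRAP1, a receptor-associated protein, rose by 0.54 (SE 0.0961, adjusted p = 0.00046). The ubiquitin ligase SMURF2, which SMAD7 recruits to the receptor for degradation, rose by 0.45 (SE 0.0985, adjusted p = 0.0025), while the deubiquitinases USP4 and UCHL5, which can stabilise it, rose by 0.52 (SE 0.0874, adjusted p = 0.00030) and 0.43 (SE 0.0860, adjusted p = 0.0014). PPP1R15A, a phosphatase subunit that SMAD7 can bring to the receptor, rose by 0.67 (SE 0.189, adjusted p = 0.043), a call lost in 4 of the 6 fits that left out 1 library. The other 4 that rose were SMURF1, USP11, USP15 and DAB2. SMURF1 is a ligase like SMURF2, and USP11 and USP15 are deubiquitinases like USP4. The number that rose was 7, 6 and 5 without the siCRP2 library of code 0412, 0611 and 1311, 6 without the siCTR library of code 0611, and 2 without both libraries of code 0611.

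Of 16 nuclear partners and SMAD modifiers tested, 4 rose and 1 fell (31.2% called, where 24.0% of all genes were). Their median log2 fold change was 0.08. The corepressor SKI rose by 0.37 (SE 0.0891, adjusted p = 0.0056) and TGIF2 by 0.41 (SE 0.130, adjusted p = 0.027). The SMAD phosphatase PPM1A rose from 87.7 ± 1.26 to 105 ± 3.24 CPM (SD, n = 3, adjusted p = 0.023 in the edgeR fit). SNW1, or SKIP, a SMAD-binding coregulator, rose by 0.41 (SE 0.0840, adjusted p = 0.0015), and the SUMO ligase PIAS4 fell by 0.63 (SE 0.134, adjusted p = 0.0021). The calls of TGIF2 and PPM1A were each lost in 5 of the 6 fits that left out 1 library, and TGIF2 also missed the threshold with the filterByExpr filter (adjusted p = 0.059). The inhibitory SMAD6, the relative of SMAD7, had a log2 fold change of -0.46 (adjusted p = 0.16) and was called lower with the block (adjusted p = 0.010). With the block, 2 of the 16 were lower and 6 higher, where 17.8% and 19.5% of all genes were. Leaving out any 1 library other than the siCTR library of code 0412 gave 2 higher genes.

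In the BMP and activin branch of the same superfamily, 4 of 38 genes tested fell and 6 rose, with a median log2 fold change of 0.18. Called in either direction were 26.3% of the branch, close to the 24.0% of all genes. FST, or follistatin, which traps activin, rose from 36.8 ± 4.80 CPM in siCTR to 81.8 ± 10.7 CPM in siCRP2 cells (SD, n = 3), by 1.15 on the log2 scale (SE 0.116, adjusted p = 3.1e-06). Its relative FSTL3 fell by 0.59 (SE 0.133, adjusted p = 0.0038). The activin receptors ACVR2B and ACVR1B rose by 0.84 (SE 0.142, adjusted p = 0.00031) and 0.62 (SE 0.113, adjusted p = 0.00057). The ligand GDF11, which uses these receptors, fell by 1.18 (SE 0.184, adjusted p = 0.00016), and TWSG1, a BMP-binding protein, fell by 0.48 (SE 0.0864, adjusted p = 0.00054). ACVR1C rose and GDF7 fell at levels under 1 CPM on average, ACVR1C with 17 counts in the siCTR group and GDF7 with 17 in the siCRP2 group. The call of ACVR1C was lost in 3 and that of GDF7 in 4 of the 6 fits that left out 1 library, and GDF7 also missed the threshold with DESeq2 (adjusted p = 0.063). With the block, 6 of the 38 were lower and 10 higher, where 17.8% and 19.5% of all genes were. Without both libraries of code 0611 the number higher was 2, and over all genes it was 837 in place of 2987.

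**Figure D4:**
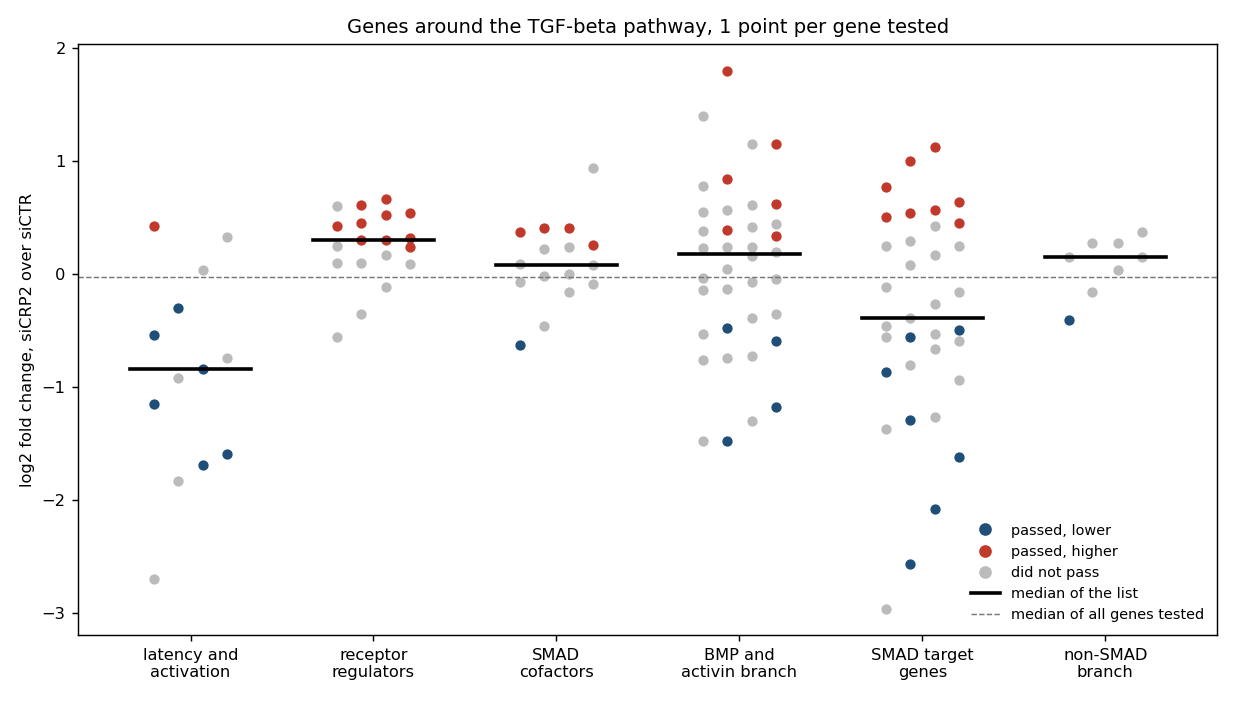
Log2 fold change, siCRP2 over siCTR, of each gene tested in the 6 lists, with genes called lower in blue, called higher in red and not called in grey, a black bar for the median of each list and a dashed line for the median of all genes tested. The latency list has a median of -0.84 with 6 genes lower, and the receptor regulators have a median of 0.30 with 10 genes higher and 0 lower.

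Of 35 known SMAD target genes tested, 7 fell and 8 rose (42.9% called, where 24.0% of all genes were). Their median log2 fold change was -0.39. CDKN1A, the cell cycle inhibitor p21, rose by 0.54 on the log2 scale (SE 0.0922, adjusted p = 0.00032), and ANGPTL4 rose by 1.13 (SE 0.204, adjusted p = 0.00054). The type I collagen chains parted, with COL1A1 higher by 0.64 (SE 0.139, adjusted p = 0.0024) and COL1A2 lower by 1.29 (SE 0.142, adjusted p = 9.0e-05), from 135 ± 24.8 CPM in siCTR to 55.1 ± 7.17 CPM in siCRP2 cells (SD, n = 3). NEDD9, a focal adhesion scaffold, fell by 0.87 (SE 0.122, adjusted p = 0.00023), and HMGA2, a chromatin protein, rose by 0.77 (SE 0.205, adjusted p = 0.034), a call lost in 2 of the 6 fits that left out 1 library.

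The remaining named targets of that list were transcription regulators. SNAI1, the repressor of epithelial genes, stood at 8.73, 3.90 and 2.38 CPM in siCTR and at 1.43, 0.657 and 0.589 CPM in siCRP2 libraries, with no overlap, and fell by 2.57 (SE 0.637, adjusted p = 0.036). ID1, which BMP signals induce, stood at 17.0, 38.4 and 42.6 CPM in siCTR and at 6.19, 10.2 and 6.76 CPM in siCRP2 libraries and fell by 2.08 (SE 0.449, adjusted p = 0.033). ID2 fell at levels under 1 CPM, with 18 counts in the siCRP2 group. Of the 6 fits that left out 1 library, the call was lost in 4 for ID1 and in 3 each for SNAI1 and ID2. With the block, 18 of the 35 were lower and 11 higher, where 17.8% and 19.5% of all genes were. Without the siCRP2 library of code 0412 the number higher was 4, without the siCTR library of code 0611 it was 5, and without both libraries of code 0611 2 genes were lower and 3 higher. PMEPA1 and TGFBI, named after their values were seen, had log2 fold changes of -1.26 (adjusted p = 0.44) and -1.37 (adjusted p = 0.18) without the block, and were lower with it (adjusted p = 4.5e-48 and 4.9e-21). Those blocked p-values rest largely on a spread pooled over genes. TPM1, SNAI2 and KLF10, targets also not named by the rule, were among those called higher with the block.

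In the non-SMAD branch, which runs through the kinase TAK1, 1 of 8 genes tested fell and 0 rose. This was 12.5% called, where 24.0% of all genes were, and the median log2 fold change was 0.15. The number higher was 2 at an unadjusted p under 0.05, and 0 with exactTest and with DESeq2. The gene that fell was TAB3, an adaptor of TAK1, by 0.41 (SE 0.0860, adjusted p = 0.0018). MAP3K7, which encodes TAK1, had a log2 fold change of 0.28 (95% interval 0.06 to 0.51, adjusted p = 0.067). TRAF6 had one of 0.28 (adjusted p = 0.086), TRAF4 one of 0.37 (adjusted p = 0.33) and TAB2 one of -0.16 (adjusted p = 0.21). With the block, 2 of the 8 were lower and 4 higher, where 17.8% and 19.5% of all genes were. Of the named genes called in all lists, the canonical transcripts of 8 of 16 lower and 2 of 19 higher genes held the heptamer shown above. Among the lower ones were FURIN, LTBP3, LTBP4 and NRROS. It occurred in 23.9% of all canonical protein-coding transcripts tested. The heptamer came from the fold changes of these same libraries and the genes were named by their p. This contrast is therefore not independent evidence, and transcript length was not taken into account.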

How the data were processed

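RNA of MDA-MB-231 cells (3 siCTR and 3 siCRP2 libraries) was analysed from raw counts per gene as deposited by the authors. They had aligned the read pairs to GRCh38 by STAR, which also counted them. The submitters' processing notes name GRCh38 and hg38. No source used here gives the STAR version, annotation or strand setting, and the study names a stranded kit where the labels name a standard one. A text column without a name, with 4 gene names in it, was left aside, and 0 other columns of values were left out. Column names gave the groups. The members and gene lists were chosen with earlier results of these data known.

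A gene was tested if at least 2 of the 3 libraries of either group had a count. After TMM scaling (factors 0.9889 to 1.03), siCRP2 was compared with siCTR by the robust quasi-likelihood test of edgeR (version 4.0.16, R 4.3.3), with Benjamini-Hochberg adjustment. Symbols and coordinates came from GENCODE 44, which held 57754 of the genes, and sequences from its transcripts and GRCh38. Each list named its 5 genes with the smallest p at 1 CPM or more on average, and any called at a fold change of at least 1.5. A target gene that this rule would name is not reported here. Replicates of a group were not copies of each other (chi-square over degrees of freedom, 13.7 to 53.6). Alternatives were DESeq2 (1.42.0), exactTest, other scalings, filters and lengths, the replicate block, and libraries left out. The steps were tested on simulated data. Those data held no effect of the codes, so they could not test the pairing.

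The codes in the column names were checked as a replicate block. Over 10828 genes (average of 5 CPM or more), deviations from the group means correlated at 0.72, 0.46 and 0.744 between the libraries of a code. Between codes they correlated at most at 0.109, and the codes were taken to pair the libraries. Deviations within a group cancel out, so positive values within codes push those between codes down. The contrast between them is therefore partly built in. They could not be matched to the replicate numbers of the labels.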

Additional observations from a re-analysis of the deposited data

How the results depend on the processing

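The members that fell kept their direction in every alternative run. Other scalings, tools and filters kept all 5 calls. With the replicate block, pairing libraries by code, 8873 genes in place of 5722 and 82 of the 126 pathway genes in place of 48 were called, and no member call changed other than those of TGFBR3 and SMAD7. Leaving out both libraries of a code was added after seeing the data. Without code 0611, 2119 genes, 1 member and 18 pathway genes were called, and without code 1311, 3765 genes. Leaving out 1 library gave 4073 to 6016 genes. Over the unblocked alternatives other than a code left out, the adjusted p was 0.0059 to 0.061 for TGFB1 and 8.2e-09 to 0.089 for TGFB2, which lost calls, and 8.8e-08 to 0.0024 for SMAD3, 3.8e-05 to 0.013 for SMAD4 and 2.0e-10 to 0.049 for TGFBR2. Without code 0611 it was 0.11, 0.17, 0.024, 0.055 and 0.092 for these genes in that order, and for TGFB1 it was 0.074 without code 1311. The sign of 3 members near 0 turned. The log2 fold change of TGFB3 ranged from -0.332 to 0.0164 and that of TGFBR1 from -0.00464 to 0.135 over single libraries left out, and TGFB3 was at 0.0501 without code 0412. SMAD2 ranged from -0.0851 to 0.0888 over single libraries left out. It was at -0.0152 with DESeq2 size factors, -0.0442 with filterByExpr, -0.0162 without a filter, -0.0151 with DESeq2, -0.0363 without code 0412 and -0.00115 without code 1311. The causes were not tested. TGFB3 held 40 to 128 counts a library, and whether depth limited its test was not tested.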
